A study of Mus musculus with 4 samples.

Results

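The genes described are the forkhead (Fox) transcription factors of the mouse, taken as every gene whose symbol is Fox followed by a letter from a to s, a number and at most a further letter. All 44 such genes of the reference gene table had at least 1 named probe on the array, with 55 probes between them, out of 20656 genes with a named probe. Expression was measured on 4 one-colour arrays in cells derived from the EB5 line of mouse embryonic stem cells, which carried an introduced red fluorescent protein (RFP) reporter of Hoxb6. All cells had been differentiated for 6 days on OP9 stromal feeder cells and sorted as positive for Flk-1, the VEGF receptor encoded by Kdr. The RFP-negative and the RFP-positive fraction were each measured on 2 arrays. The labels do not say whether the 2 arrays of a fraction came from separate cultures, so p-values measure only the spread between these arrays, which may be technical. They also do not say how the reporter was built or whether 1 clone was used.

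Forkhead proteins share a winged-helix DNA-binding domain and bind sites with a core such as GTAAACA. FoxA proteins open chromatin in endoderm, FoxC and FoxF proteins act in mesoderm and in vessels, and FoxO proteins leave the nucleus when insulin or growth factor signalling activates AKT. In early vascular mesoderm FoxC proteins bind together with the ETS factor Etv2 at enhancers of endothelial genes, which is the setting of Flk-1-positive cells.

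No forkhead gene differed between the fractions at an adjusted p of 0.05, and the share of the family whose fractions did not overlap was close to that of all genes. Of the 44 genes, 25 were well above background on all 4 arrays by the scanner software's mark, which is meant below by measured, 11 on 1 to 3 arrays and 8 on none. Each array measured 29 to 33 of them. Each value is the log2 of a signal over the 75th percentile of its array, and a difference is the RFP-positive mean minus the RFP-negative mean. Testing required a probe well above background on both RFP-negative or both RFP-positive arrays, and 31 forkhead genes met this. Among these 31, 4 had both RFP-positive arrays above both RFP-negative arrays, namely Foxc2, Foxd1, Foxj3 and Foxn3. Another 9 had both RFP-positive arrays below, namely Foxb2, Foxe3, Foxf2, Foxj2, Foxl2, Foxn2, Foxp1, Foxp4 and Foxs1. Foxd1 entered the test only through the RFP-positive arrays, and Foxb2 and Foxf2 only through the RFP-negative arrays. Foxa3, whose fractions overlapped, also entered only through the RFP-negative arrays. These were the arrays where each had its higher mean, so the filter favoured their direction. The fitted differences ran from −1.65 (SE 0.92) for Foxa3 to 2.20 (SE 0.88) for Foxd1. Each rests on an array where the gene was not measured, and they were −0.45 and 0.66 with normexp background correction.

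**Figure D1:**
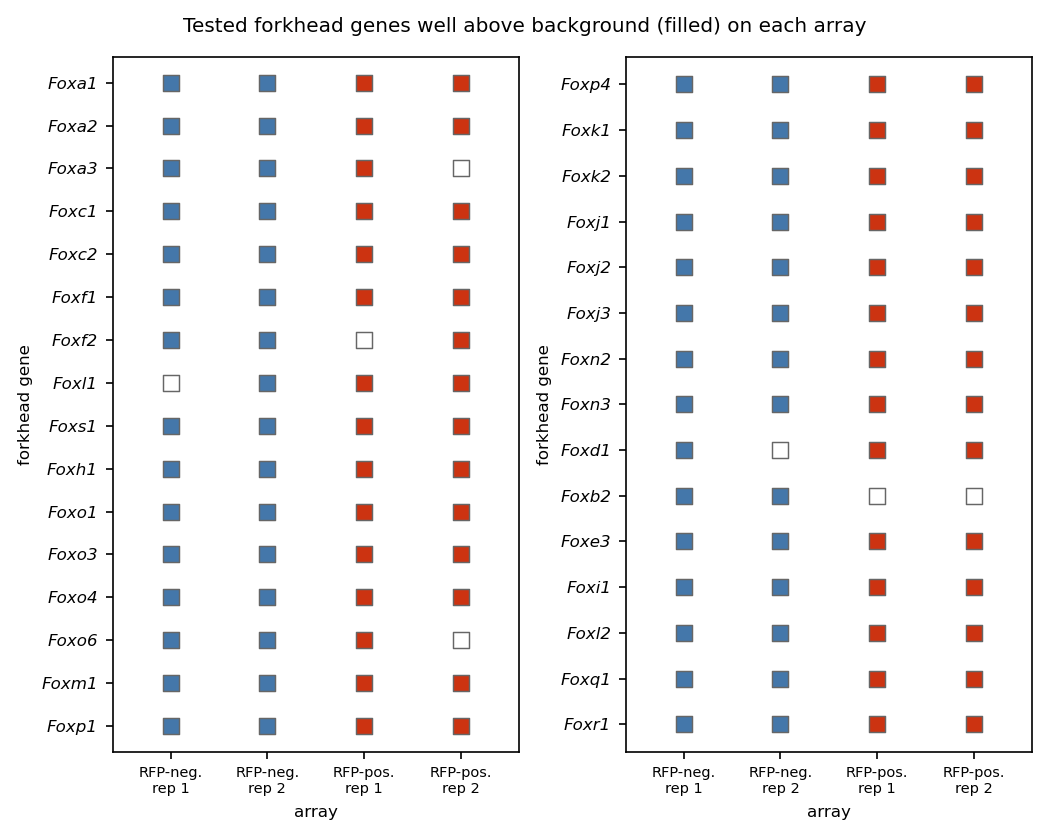
Each row is 1 of the 31 tested forkhead genes, ordered by role, and each column 1 of the 4 arrays; a filled square (blue RFP-negative, red RFP-positive) means that the gene's probe was well above background there. Of these genes, 25 are filled on all 4 arrays and 6 on 2 or 3.

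These counts were read against all 13430 genes tested, in limma's moderated test with Benjamini-Hochberg adjustment. At an adjusted p under 0.05 there were 0 forkhead genes and 0% of all genes, and the adjusted p of the 31 forkhead genes ran from 0.745 to 0.999. At an unadjusted p under 0.05 there were 2 forkhead genes, Foxb2 and Foxj2, which is 6.45% of the 31 against 6.49% of all genes. Foxb2 entered the test through the RFP-negative arrays alone, and among the 25 genes measured on all 4 arrays only Foxj2 remained. Both were lower in RFP-positive cells, where 3.72% of all genes were lower and 2.77% higher at that threshold. The fractions did not overlap for 13 forkhead genes, 41.9% of those tested, against 40.3% of all genes. By direction the shares were 12.9% higher against 18.8% of all genes, and 29.0% lower against 21.6%. Scaling to the median in place of the 75th percentile gave 6 higher and 7 lower. No forkhead gene had every RFP-positive array at least 2-fold from every RFP-negative array on the same side, as 1.36% of all genes did. Among genes well above background on all 4 arrays, 10 of 25 forkhead genes did not overlap, against 39.4% of 12417 genes. With 2 arrays against 2, an exact permutation test of a single gene cannot give a p below 0.33. Leaving out 1 array lets values separate more easily: the count without overlap then ran from 18 to 25 of 31, and the share of all genes from 65.3% without RFP-negative replicate 1 to 81.3% without RFP-positive replicate 1.

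**Figure D2:**
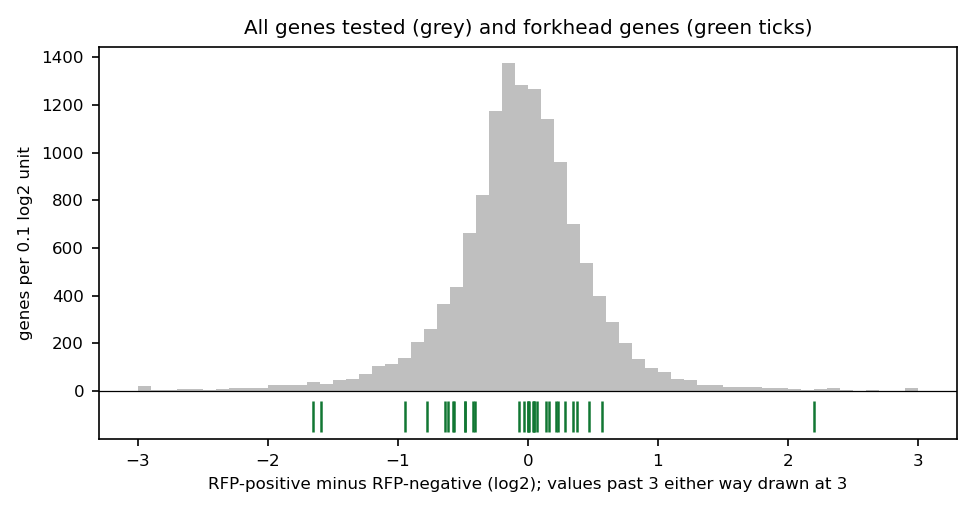
The grey histogram gives the RFP-positive minus RFP-negative log2 difference of the 13430 genes tested, in bins of 0.1 with values past 3 either way drawn at 3, and each green tick below it is 1 of the 31 forkhead genes. The ticks lie on both sides of 0, from −1.65 to 2.20, with a median of 0.0030 against −0.05 for all genes.

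The arrays themselves limit what can be seen. The signal of a forkhead gene differed between the 2 RFP-negative arrays by a median of 0.40 and between the 2 RFP-positive arrays by 0.47, against 0.25 and 0.38 for all genes tested. The median size of the 31 differences was 0.38, against 0.27 for all genes tested. These are differences of means of 2 arrays, which vary less than single arrays, so they cannot be compared directly with those gaps. Of 31 genes, 21 had a difference smaller than 0.5 in either direction. The 95% interval of the difference lay within 2-fold either way for 8 genes: Foxi1, Foxj1, Foxj3, Foxk1, Foxk2, Foxm1, Foxn3 and Foxr1. For the other 23 the interval reached a 2-fold difference or more, so that size was not resolved here. RFP-positive replicate 2 stood apart from the other arrays, with a correlation across genes of 0.95 with each RFP-negative array and 0.96 with its own partner. Kdr was at 4.18 to 4.41 on all 4 arrays. Hoxb6 was not well above background on any, so its transcript gave no check of the sort. Each array had 59305 spots besides controls, 55.2% to 59.3% of them well above background and 0 saturated.

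Promoters are shown for Foxd1, which had the highest difference, for the 2 genes with an unadjusted p under 0.05, and for Foxa1, the 1 gene whose promoter held the forkhead heptamer. The windows are RefSeq's for GRCm38.p6, from 250 bases before to 50 after the start site, 300 bases each, written 5′ to 3′ along the gene. In the first 3 the capitals mark CG pairs, and in Foxa1 they mark GTAAACA. Foxd1 is at chr13:98353995-98354294, plus strand, Foxb2 at chr19:16873781-16874080, minus strand, Foxj2 at chr6:122819934-122820233, plus strand, and Foxa1 at chr12:57546062-57546361, minus strand.
Foxd1: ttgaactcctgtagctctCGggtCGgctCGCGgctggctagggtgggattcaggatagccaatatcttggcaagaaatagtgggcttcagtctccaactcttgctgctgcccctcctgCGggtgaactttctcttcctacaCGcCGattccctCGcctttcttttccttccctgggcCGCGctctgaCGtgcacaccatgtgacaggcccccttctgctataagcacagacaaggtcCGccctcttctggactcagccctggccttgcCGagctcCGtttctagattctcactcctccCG
Foxb2: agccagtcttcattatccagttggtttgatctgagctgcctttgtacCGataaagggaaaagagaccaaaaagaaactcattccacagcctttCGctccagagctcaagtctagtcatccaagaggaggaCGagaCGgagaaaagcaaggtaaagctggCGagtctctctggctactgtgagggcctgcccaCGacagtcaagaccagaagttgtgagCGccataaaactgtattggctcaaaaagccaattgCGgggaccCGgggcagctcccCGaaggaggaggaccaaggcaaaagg
Foxj2: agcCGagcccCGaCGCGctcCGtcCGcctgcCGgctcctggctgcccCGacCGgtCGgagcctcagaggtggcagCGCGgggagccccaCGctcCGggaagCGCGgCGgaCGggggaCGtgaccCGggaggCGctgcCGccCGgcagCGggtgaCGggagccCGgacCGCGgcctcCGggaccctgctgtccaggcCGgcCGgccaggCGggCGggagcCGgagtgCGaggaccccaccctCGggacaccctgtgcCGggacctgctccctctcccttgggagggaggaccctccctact
Foxa1: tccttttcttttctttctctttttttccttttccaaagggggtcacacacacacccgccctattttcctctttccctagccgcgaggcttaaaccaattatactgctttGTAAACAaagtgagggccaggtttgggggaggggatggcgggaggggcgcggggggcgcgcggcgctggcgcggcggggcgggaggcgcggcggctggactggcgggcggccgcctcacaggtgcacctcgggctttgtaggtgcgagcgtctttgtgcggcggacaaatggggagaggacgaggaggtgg

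The promoter table held 33 windows for 28 of the 44 genes. The heptamer GTAAACA, searched on both strands, was in 1 of the 33, against 3.65% of all 32851 promoters of that length. The shorter TAAACA, which the heptamer contains, was in 5, those of Foxa1, Foxp1 and Foxp3, against 13.4% of all. The ETS core GGAAGT was in 5, those of Foxa2, Foxf2, Foxj3, Foxl2 and Foxn3, against 23.8%. A match to letters is not a bound site. The forkhead promoters were rich in CG pairs, with a median of 22 per window against 7 in all promoters, and 27 of 33 were above that median. With the richest window of each gene, the median was 31 for the 15 genes measured on all 4 arrays, 15 for the 7 measured on 1 to 3 and 15 for the 6 measured on none. Foxj2 had 37 CG pairs, Foxa1 26, Foxd1 15 and Foxb2 10.

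The FoxC genes, which act in paraxial mesoderm and in arterial and lymphatic endothelium, were both measured on all 4 arrays. Foxc2 had values of 4.36 and 4.25 on RFP-negative replicates 1 and 2, and of 4.50 and 5.05 on RFP-positive replicates 1 and 2. Both RFP-positive arrays were higher, replicate 2 by more than replicate 1. The difference was 0.47 (SE 0.29, limma adjusted p 0.75), and 0.20 without RFP-positive replicate 2. Its close relative Foxc1 had values of −0.34 and 0.42 in RFP-negative and −0.16 and 0.55 in RFP-positive cells. The replicates of each fraction were further apart than the fractions, which overlapped. The difference of 0.16 (SE 0.40) turned to −0.22 without RFP-negative replicate 1 and to −0.20 without RFP-positive replicate 2.

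The FoxF genes, regulators of lateral plate and visceral mesoderm, had lower means in RFP-positive cells. Foxf1 was at −1.05 and −1.51 in RFP-negative and at −1.41 and −2.27 in RFP-positive cells. The fractions overlapped, RFP-positive replicate 2 being the lowest array, and the difference was −0.57 (SE 0.39, limma adjusted p 0.755), and −0.14 without RFP-positive replicate 2. Foxf2 was at −3.42 and −3.92 in RFP-negative cells and at −4.00 on RFP-positive replicate 2, and was not well above background on RFP-positive replicate 1, at −4.56. All 4 signals were close to the lowest that counted as measured, which lay between −4.54 and −3.98, and the difference of −0.61 became −0.17 with normexp background correction. Foxs1, a gene of pericytes and of developing vessels, was at −1.27 and −0.93 in RFP-negative and −1.38 and −2.70 in RFP-positive cells. RFP-positive replicate 1 lay only just below the RFP-negative arrays and replicate 2 far below. The difference was −0.94 (SE 0.49, limma adjusted p 0.75), and −0.29 without RFP-positive replicate 2. Foxl1, known from gut mesenchyme, was not well above background on RFP-negative replicate 1, at −4.16, and was at −2.58 on RFP-negative replicate 2 and at −3.31 and −3.42 in RFP-positive cells. Its difference was 0.01, with a 95% interval from −1.45 to 1.46, and −0.11 with normexp.

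Markers of other mesenchymal cells also had lower medians in RFP-positive cells, at −0.40 and −0.79 for the 2 lists below, and 0 passed the adjusted threshold. Of 11 mural and smooth muscle markers tested, 6 were lower and 0 higher in RFP-positive cells without overlap, where 21.6% of all genes were lower and 18.8% higher. Their summed linear signal was 390 to 399 times the array's 75th percentile in RFP-negative and 334 to 342 times in RFP-positive cells, and Cspg4, a pericyte marker, was not above the background mark on any array. Of 12 markers of OP9 stroma and fibroblasts tested, 9 were lower and 0 higher without overlap, with summed signals of 72.8 to 119 against 47.5 to 60.3. Dcn, Postn and Mfap5 of that list were not above the background mark on any array. The part of these cells in the FoxF and Foxs1 values was not tested, and fewer cells of a type and less RNA per cell cannot be told apart in sorted bulk samples.

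Of these genes, some neighbour each other in the genome. Foxf1, Foxc2 and Foxl1 follow each other on chromosome 8, with 1 protein-coding gene between the first pair and none between the second. Their differences of −0.57, 0.47 and 0.01 had no common direction. Foxq1, Foxf2 and Foxc1 follow each other on chromosome 13 with no protein-coding gene between them, and had differences of 0.57, −0.61 and 0.16. Foxd2 and Foxe3 are neighbours on chromosome 4. There, Foxe3 was at −0.77 and Foxd2 was not tested.

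**Figure D3:**
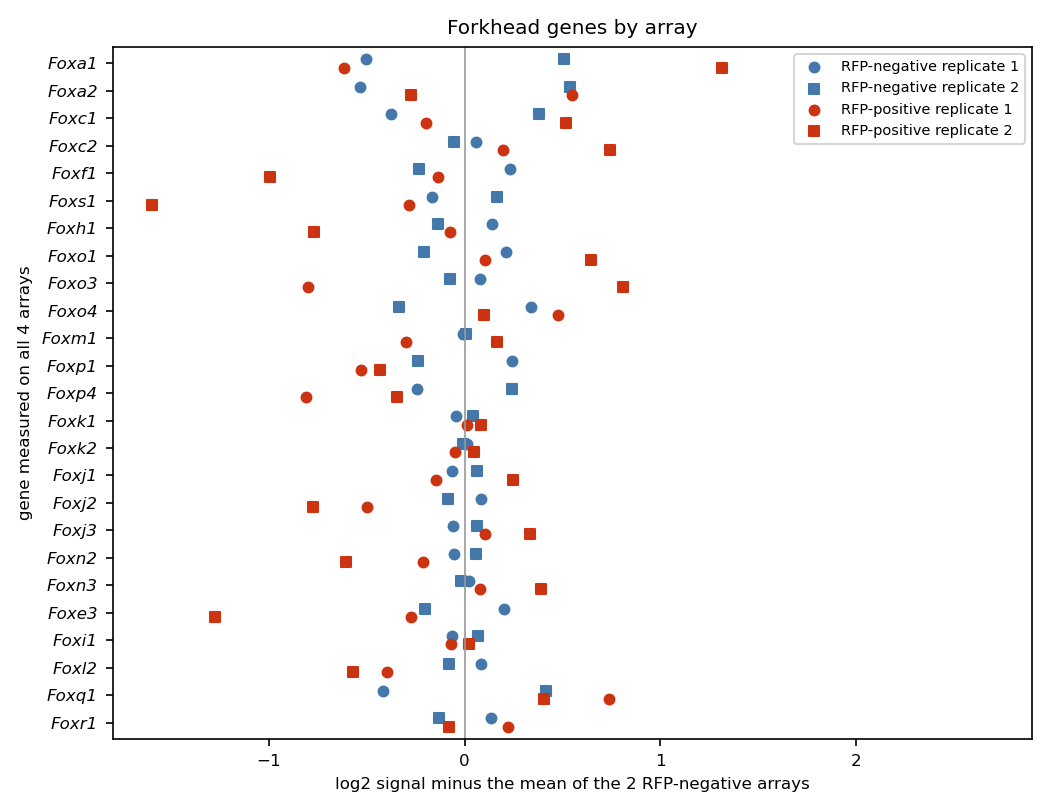
Each point is 1 array's log2 signal minus the mean of the 2 RFP-negative arrays, for the 25 forkhead genes well above background on all 4 arrays; blue is RFP-negative, red RFP-positive, circles replicate 1 and squares replicate 2. RFP-positive replicate 2 gives the farthest points of Foxs1, Foxe3 and Foxf1, and both red points lie left of both blue ones for Foxj2, Foxp1, Foxp4 and Foxl2, among others.

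The endoderm factors of the FoxA group were measured although the cells had been sorted for a mesoderm receptor. Foxa2, which is expressed in definitive endoderm and the axial midline, had values of 0.77 and 1.84 in RFP-negative and 1.86 and 1.03 in RFP-positive cells. Foxa1 had values of −1.83 and −0.81 in RFP-negative and −1.94 and −0.0043 in RFP-positive cells. For both, the 2 arrays of a fraction differed by more than the fractions did, and the differences were 0.14 (SE 0.49) and 0.35 (SE 0.74). Each turned negative when some arrays were left out, Foxa2 to −0.40 without RFP-negative replicate 1 and −0.28 without RFP-positive replicate 1, and Foxa1 to −0.16 without RFP-negative replicate 1 and −0.62 without RFP-positive replicate 2. Foxa3, a liver and gut factor, was at −2.32 and −3.03 in RFP-negative cells and at −2.99 on RFP-positive replicate 1. On RFP-positive replicate 2 it was not well above background, at −5.67, and that array set the difference, which was −1.65 with it and −0.31 without it. With normexp background correction it was −0.45. Foxa3 could be tested only because it was measured on both RFP-negative arrays.

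Of 11 endoderm markers tested, 5 were lower and 1 higher in RFP-positive cells without overlap, against 21.6% and 18.8% of all genes. Their median difference was −0.68, or −0.15 without RFP-positive replicate 2, and the summed signal was 36.2 to 58.7 in RFP-negative and 29.6 to 32.3 in RFP-positive cells. The 4 of smallest p were Rbp4 at −2.01, Spink1 at −1.97, Epcam at −1.55 and Cldn6 at −1.52. Hnf4a, Afp, Alb, Apoa1, Apob and Shh were not above the background mark on any array. The part of endoderm cells in the FoxA values was not tested.

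Foxh1, the DNA-binding partner of Smad2 and Smad3 in Nodal signalling, was measured on all 4 arrays. Its values were 2.70 and 2.43 in RFP-negative and 2.49 and 1.8 in RFP-positive cells, with RFP-positive replicate 1 between the RFP-negative arrays. The difference was −0.42 (SE 0.33, limma adjusted p 0.766), and −0.07 without RFP-positive replicate 2. The list of Nodal pathway genes had a median difference of 0.33 over 16 genes tested, of which 7 were higher and 0 lower without overlap, against 18.8% and 21.6% of all genes, and 0 passed the adjusted threshold. Nodal itself was at 0.29 and 0.14 in RFP-negative and 1.07 and 0.88 in RFP-positive cells, apart by 0.77 (SE 0.23, limma adjusted p 0.736). Smad3 differed by 0.87 and Eomes, a T-box gene of the primitive streak, by 0.89. The median of the list kept its sign under each scaling and without each array, from 0.21 to 0.41.

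In the vessel setting of FoxC, the list of FoxC and ETS vessel genes had a median difference of 0.20 over 20 genes tested. Of these, 8 were higher and 0 lower without overlap, against 18.8% and 21.6% of all genes, and 0 passed the adjusted threshold. Flt1, a VEGF receptor, differed by 0.84, Sox7 by 0.83 and Tal1, a regulator of blood and endothelium, by 0.39. Etv2 was at 3.77 and 3.10 in RFP-negative and 3.21 and 2.22 in RFP-positive cells, with overlap, a difference of −0.72. The list of lateral and paraxial mesoderm genes had a median of 0.14 over 17 genes, with 6 higher and 3 lower without overlap. That median was 0.02 without RFP-positive replicate 2 and 0.40 without RFP-positive replicate 1. Meox1 and Tcf15, both of paraxial mesoderm and somites, differed by 1.28 and 0.96, Tbx6 by −1.24 and Pdgfra by 0.79. Endothelial markers, with 5 of 10 higher and 0 lower without overlap, had summed signals of 91.8 to 96.2 in RFP-negative and 103 to 111 in RFP-positive cells. Blood markers, with 5 of 8 higher and 1 lower, had 11.1 to 12 and 15.4 to 17.4, and Hba-x of that list was not above the background mark on any array. The part of these cells in the values of Foxc1 and Foxc2 was not tested.

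The FoxO genes, which raise stress resistance and cell cycle arrest genes when AKT is inactive, overlapped between the fractions. Foxo1, which endothelial cells need during vessel growth, was at 1.01 and 0.59 in RFP-negative and 0.91 and 1.45 in RFP-positive cells. RFP-positive replicate 1 lay between the RFP-negative arrays and replicate 2 above them, and the difference was 0.38 (SE 0.31, limma adjusted p 0.780), or 0.10 without RFP-positive replicate 2. A second Foxo1 probe, well above background on all 4 arrays, differed by −0.04. Foxo3 was at 3.12 and 2.96 in RFP-negative cells, and in RFP-positive cells at 2.24 on replicate 1 and 3.85 on replicate 2. The RFP-positive arrays lay on opposite sides of the RFP-negative ones, so that the mean difference was 0.0030 with a 95% interval from −1.48 to 1.48. Without RFP-positive replicate 2 the difference was −0.80. Foxo4 was at −2.45 and −3.12 in RFP-negative and −2.31 and −2.69 in RFP-positive cells. The difference was 0.29 (SE 0.33), or 0.0061 with normexp. Its second probe differed by 0.61 but was not well above background on RFP-negative replicate 2, at −4.55. Foxo6 was at −2.93 and −3.57 in RFP-negative cells and at −2.26 on RFP-positive replicate 1, and was not well above background on RFP-positive replicate 2. Its difference was 0.04 with a 95% interval from −1.75 to 1.82, and −0.02 with normexp. A second Foxo6 probe, well above background on replicate 1 of each fraction alone, differed by 0.73.

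Around the FoxO factors, upstream regulators such as the kinases of the AKT branch had a median difference of 0.11 over 17 genes, with 6 higher and 2 lower without overlap. Pdpk1, which activates AKT, differed by 0.69 and Xpo1, the nuclear exporter, by 0.65. The FoxO target genes had a median of −0.25 over 28 genes, −0.03 without RFP-positive replicate 2, with 5 higher and 10 lower without overlap against 18.8% and 21.6% of all genes, and in neither list did a gene pass the adjusted threshold. Those of smallest p were G6pc at −0.84, Pck1 at −3.37, Spry2 at −0.99 and Pdk4 at −0.69. Pck1, a gluconeogenic enzyme that adipocytes also express, was at −1.06 and −1.92 in RFP-negative cells and at −2.90 on RFP-positive replicate 1, and was not well above background on RFP-positive replicate 2, at −6.81. Beside this, 12 of 13 adipocyte markers were lower and 0 higher in RFP-positive cells without overlap, with summed signals of 53.1 to 64.7 in RFP-negative and 17.4 to 22.7 in RFP-positive cells. All 13 were tested. The part of adipocyte-like cells in the FoxO target values was not tested.

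Foxm1 activates genes of mitosis in dividing cells, and its 2 probes did not give the same answer. The probe with the higher signal was at 1.68 and 1.70 in RFP-negative and at 1.39 and 1.86 in RFP-positive cells. RFP-positive replicate 1 was below and replicate 2 above both RFP-negative arrays, a difference of −0.07 (SE 0.27), which was 0.016 with scaling to the median and 0.16 without RFP-positive replicate 1. The other probe was at −0.42 and −0.59 in RFP-negative and −1.13 and −1.79 in RFP-positive cells. There both RFP-positive arrays were lower, by −0.95 on average. FoxM1 target genes had a median of −0.23 over 19 genes, with 1 higher and 9 lower without overlap, against 18.8% and 21.6% of all genes, and 0 past the adjusted threshold. Ube2c differed by −0.77, Plk1 by −0.50, Cenpa by −1.02 and Kif20a by −0.45.

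FoxP proteins are mainly repressors that act as dimers. With the probes used, both members that were tested lay lower in RFP-positive cells without overlap, as 21.6% of all genes did. Foxp1 was at 0.89 and 0.41 in RFP-negative and at 0.12 and 0.22 in RFP-positive cells, which differed by −0.48 (SE 0.27, limma adjusted p 0.75). Its other 2 probes overlapped between the fractions and differed by −0.41 and 0.37, so the probes did not share a sign. Foxp4 was at 0.46 and 0.95 in RFP-negative and −0.11 and 0.36 in RFP-positive cells. The difference was −0.58 (SE 0.31, limma adjusted p 0.75). A second Foxp4 probe did not overlap either, at −0.44, and the last, measured on 3 arrays, differed by 0.12. With all probes of a gene averaged, the differences were −0.17 for Foxp1 and −0.30 for Foxp4. Foxp3, the factor of regulatory T cells, was measured on RFP-negative replicate 2 alone, and neither Foxp2 probe was measured on any array.

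The FoxK genes varied little between these arrays. Foxk1, a repressor of autophagy genes and a regulator of metabolism, was at 2.52 and 2.60 in RFP-negative and 2.57 and 2.65 in RFP-positive cells. Foxk2 was at −0.86 and −0.88 in RFP-negative and −0.92 and −0.82 in RFP-positive cells. The differences were 0.05 (95% interval −0.54 to 0.63) and −0.0017 (−0.58 to 0.58), the latter turning sign with quantile normalization and with scaling to the median, at 0.0039 and 0.08.

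Among the FoxJ and FoxN genes, Foxj2, a widely expressed activator, was at 1.08 and 0.91 in RFP-negative and 0.50 and 0.22 in RFP-positive cells. Both RFP-positive arrays were lower, by −0.64 on average (SE 0.24, limma adjusted p 0.745), and its difference ran from −0.78 to −0.50 when each array was left out. Foxj3, a related factor, was at 4.22 and 4.35 in RFP-negative and 4.39 and 4.62 in RFP-positive cells, a difference of 0.22 (SE 0.24), or 0.10 without RFP-positive replicate 2. The fractions did not overlap, by a margin smaller than the gap between the RFP-positive arrays. Foxn3, a repressor with a role in checkpoint control, was at 1.59 and 1.55 in RFP-negative and 1.65 and 1.96 in RFP-positive cells. Foxn2 was at 1.49 and 1.61 in RFP-negative and 1.34 and 0.94 in RFP-positive cells. Neither of these overlapped between the fractions, with differences of 0.23 (SE 0.24) and −0.41 (SE 0.26), or 0.08 and −0.21 without RFP-positive replicate 2. Foxn1, of the thymus epithelium, and Foxn4 were not above the background mark on any array.

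Foxj1, which switches on the genes of motile cilia, was low on all 4 arrays, at −3.51 and −3.38 in RFP-negative and −3.59 and −3.19 in RFP-positive cells. The difference was 0.05 (SE 0.26) and −0.13 with normexp background correction. Of its target genes, 10 were tested, with a median of −0.42. Without overlap, 3 were lower and 0 higher, against 21.6% and 18.8% of all genes. Tekt2, of the ciliary axoneme, differed by −1.52 and Dnah11, a dynein heavy chain, by −0.70. None passed the adjusted threshold.

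In the FoxD group only Foxd1, a gene of kidney stroma and of the developing retina, was tested. It could be tested only because it was measured on both RFP-positive arrays. It was at −2.46 on RFP-negative replicate 1, was not well above background on RFP-negative replicate 2, at −4.77, and was at −0.77 and −2.06 in RFP-positive cells. All RFP-positive values were higher, and RFP-positive replicate 2 exceeded the 1 measured RFP-negative value by less than the gap between the RFP-positive arrays. The difference was 2.20 (SE 0.88, 95% interval −0.10 to 4.50, limma adjusted p 0.745). It was 1.05 without RFP-negative replicate 2, 3.35 without RFP-negative replicate 1 and 0.66 with normexp background correction. Foxd2 was well above background on 1 array of each fraction, Foxd4 on RFP-negative replicate 2 alone, and Foxd3, a gene of pluripotent cells and neural crest, on none.

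**Figure D4:**
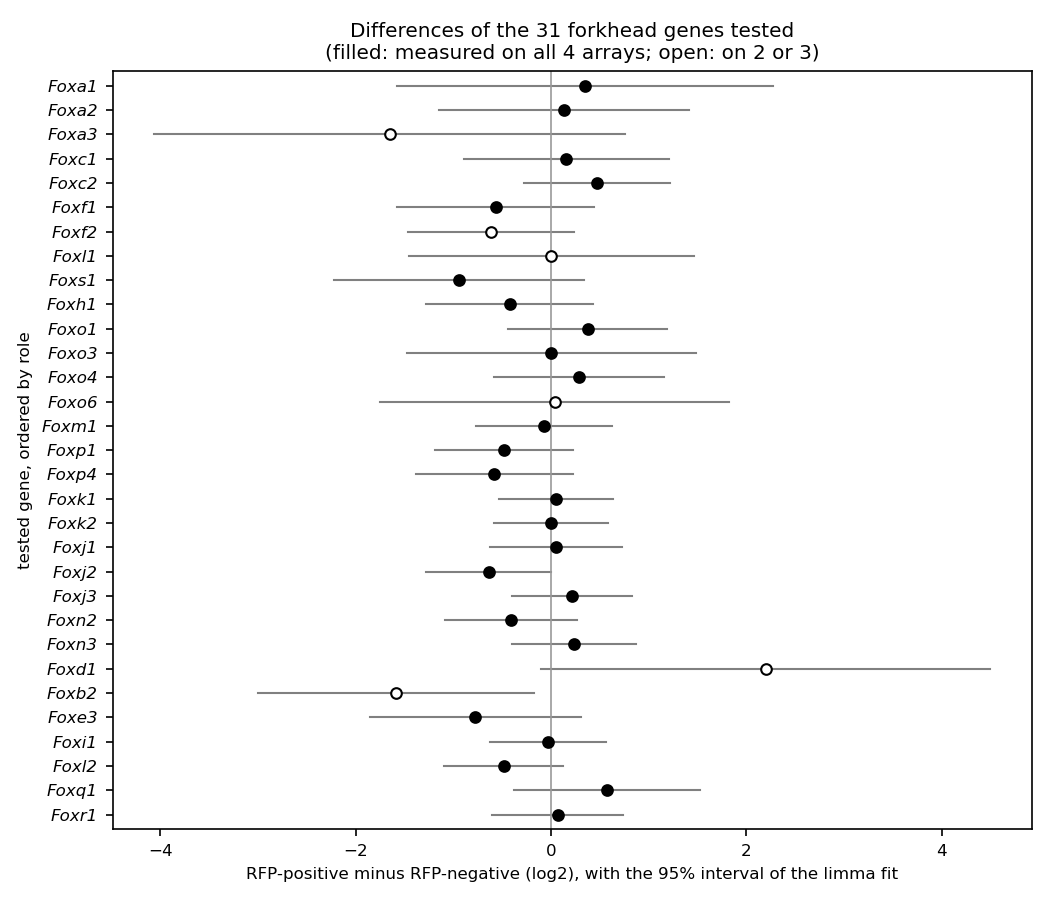
Points give the RFP-positive minus RFP-negative log2 difference of the 31 tested forkhead genes, ordered by role, and lines the 95% interval of the limma fit; open points were measured on 2 or 3 of the 4 arrays. All intervals but those of Foxb2 and Foxj2 include 0, and the upper end for Foxj2 is −0.00059.

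The remaining genes are best known from ectoderm, placodes, gonads and glands. Foxb2 was at −2.14 and −3.53 in RFP-negative cells and below the well-above-background mark on the RFP-positive arrays, at −4.09 and −4.75. As a bound, each RFP-positive array was set to its lowest measured signal wherever Foxb2 lay under it. The RFP-negative level was then 2.68-fold higher. The fitted difference was −1.59 (limma adjusted p 0.745), and −0.55 with normexp background correction. Without RFP-negative replicate 1 the bound was 1.66-fold. Foxb2 could be tested only because it was measured on both RFP-negative arrays. Foxe3, a lens gene, was at −0.47 and −0.87 in RFP-negative and −0.94 and −1.94 in RFP-positive cells. Both RFP-positive arrays were lower, replicate 1 by little, and the difference was −0.77 (SE 0.41, limma adjusted p 0.75), and −0.27 without RFP-positive replicate 2.

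Foxl2, the ovary and eyelid factor, had 2 probes, and whether the bright one detects Foxl2 alone was not checked. The one used was at 8.19 and 8.02 in RFP-negative and 7.71 and 7.53 in RFP-positive cells, with the means −0.48 apart (SE 0.23, limma adjusted p 0.745). The other was at −0.08 and −0.26 in RFP-negative and −0.34 and −0.40 in RFP-positive cells, a difference of −0.20. Both probes were lower in RFP-positive cells without overlap. Foxq1 was at 0.59 and 1.42 in RFP-negative and 1.75 and 1.41 in RFP-positive cells. RFP-negative replicate 1 was the low array, and the difference was 0.57 (SE 0.37), or 0.16 without it.

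Foxi1, of the inner ear and kidney, was at −2.07 and −1.94 in RFP-negative and −2.07 and −1.98 in RFP-positive cells. Foxr1 was at −1.68 and −1.95 in RFP-negative and −1.59 and −1.89 in RFP-positive cells. Both overlapped, with differences of −0.03 and 0.07 whose sign turned under 1 other scaling or background correction each, at 0.06 for Foxi1 with scaling to the median and −0.04 for Foxr1 with normexp. Foxe1, a thyroid factor, was measured on RFP-positive replicate 2 alone. Foxb1, Foxi2, Foxi3 and Foxr2 were not measured on any array.

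**Figure D5:**
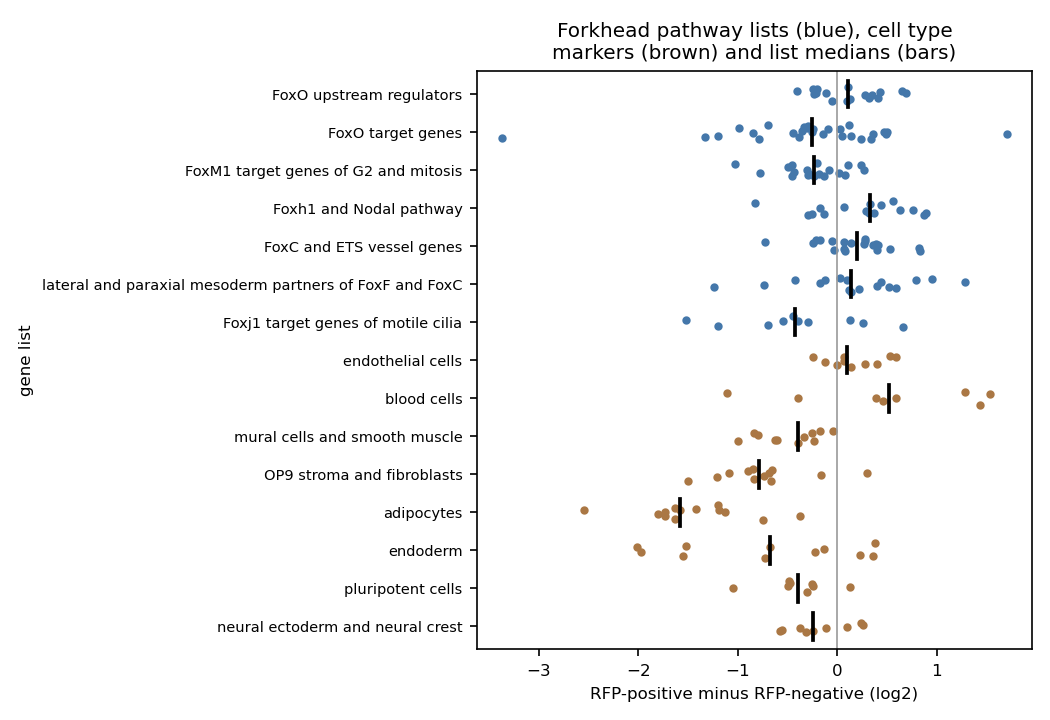
Each dot is the RFP-positive minus RFP-negative log2 difference of 1 tested gene, blue for lists around the forkhead factors and brown for cell type markers, and each bar is the list's median. The adipocyte median of −1.58 and the stromal median of −0.79 lie farthest to the left, and the blood median of 0.53 farthest to the right.

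Markers of pluripotent and neural cells were the remaining lists. Pluripotency genes had a median of −0.39 over 8 tested. Without overlap, 2 were lower and 0 higher, where 21.6% of all genes were lower and 18.8% higher. Summed signals were 495 to 597 in RFP-negative and 415 to 514 in RFP-positive cells. Nanog alone made up most of each sum, at log2 values of 9.18 and 8.92 in RFP-negative and 8.96 and 8.66 in RFP-positive cells, with overlap. Whether its probe detects Nanog alone was not checked. Pou5f1 was far lower, at 0.47 and 0.29 in RFP-negative and 0.24 and −1.58 in RFP-positive cells. Sox2 lay between −4.38 and −3.12 and was not well above background on RFP-negative replicate 1. Zfp42 and Dppa3 of that list were not above the background mark on any array. The neural list had a median of −0.24 over 9 tested, which was 0.02 without RFP-positive replicate 2 and −0.03 without RFP-negative replicate 1, with 2 genes higher and 2 lower without overlap and summed signals of 43.2 to 45.9 and 35.6 to 42.9. Its Pax6, a neural and eye gene, was not above the background mark on any array. The part of such cells in the values of Foxd1, Foxe3 and Foxb2 was not tested.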

How the data were processed

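Total RNA of 2 RFP-negative and 2 RFP-positive samples was hybridised to one-colour Agilent arrays. The deposited intensity values are, per the file headers, processed signals written by version 10.10.1.1 of Agilent's Feature Extraction. The deposited value table holds the same intensity times 1 constant per array, between 5.39 and 6.45, chosen in a way not given in the sources used here. The scanner's well-above-background and outlier marks come with the same files, per the file headers. All arrays lay on 1 slide.

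Of 62976 spots, 3671 controls and 115 to 153 outlier spots per array were left out. Signals were divided by the 75th percentile of their array, and log2 values were averaged over a probe's spots. Probes were named by RefSeq accession through a GRCm38 gene table: 27229 of 55681 had 1 symbol, 0 several and 28452 none. A gene's probe with the highest mean was used. The array's own annotation is mm9, so gene coordinates are not given; promoter windows come from RefSeq.

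The comparison used R 4.3.3 and limma 3.58.1 (lmFit, eBayes, two-sided, 2 residual and 2.77 prior degrees of freedom) across all genes, without a block. Steps were tested on simulated data. Python 3.11.15, pandas 2.3.3 and matplotlib 3.10.9 were used. The rule was to name every forkhead gene, with up to 4 genes of smallest p from each of 15 other lists; some genes are not reported here. The members and lists were chosen with earlier results of these data known. Alternatives were other scalings (quantile, median), normexp with an offset of 50 on the spots' median signals, the deposited table, averaging all probes of a gene, testing all genes or only those measured on all 4 arrays, an intensity trend in eBayes with and without robust fitting, the replicate block, and leaving out each array.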

Additional observations from a re-analysis of the deposited data

How the results depend on the processing

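No forkhead gene and no gene of the whole table passed an adjusted p of 0.05 under any of the 14 alternatives. With the replicate number as a block there were 0 such forkhead genes, and 3 with an unadjusted p under 0.05 in place of 2, against 7.74% of all genes. Those were Foxa3, Foxd1 and Foxb2, so that Foxj2 was lost, and no call at the adjusted threshold changed. The labels do not say that a replicate number marks a shared culture or day, so the numbers are not taken as pairs. Same-numbered arrays deviated together with a correlation of 0.09, which with 2 arrays per fraction cannot tell whether they were paired. The count with an unadjusted p under 0.05 was 1 with scaling to the median, normexp, no filter or the stricter filter. There, 5.43% to 7.2% of all genes passed. The count was 4 with eBayes with trend, robust or not, against 6.88% and 6.98% of all genes. It ran from 1 to 8 when each array was left out, the 8 without RFP-positive replicate 1, when 20.5% of all genes passed, where the lone array is assumed to vary like the other fraction. The count without overlap then ran from 18 to 25, against 65.3% to 81.3% of all genes. That at least 2-fold apart between every pair ran from 1 to 4, with no share of all genes at hand to read it against. The median of the family was 0.087 with scaling to the median and −0.088 without a filter, and ran from −0.16 to −0.046 without 1 array. No scaling moved the median of all genes by over 0.1. Over 350 recomputed differences of the 25 genes on all 4 arrays, 326 kept their direction and 24 reversed. The deposited table, the filters, the eBayes variants and the block leave each difference unchanged by construction and could not reverse it. Averaging probes could change only genes with several probes, so the 326 do not measure stability. With scaling to the median, Foxm1 was at 0.016, Foxk2 at 0.082 and Foxi1 at 0.058; with quantile normalization, Foxk2 was at 0.0039; with normexp, Foxj1 was at −0.13 and Foxr1 at −0.044. The other 18 reversals came from leaving out an array, over which the differences ran from −0.62 to 1.32 for Foxa1, −0.40 to 0.68 for Foxa2, −0.22 to 0.54 for Foxc1, −0.80 to 0.81 for Foxo3 and −0.047 to 0.63 for Foxo4. They ran from −0.30 to 0.16 for Foxm1, −0.050 to 0.046 for Foxk2, −0.15 to 0.25 for Foxj1, −0.092 to 0.039 for Foxi1 and −0.083 to 0.22 for Foxr1. The cause was not tested.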
